A study of Homo sapiens with 4 samples.

Results

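The genes that encode the subunits of integrins and laminins were examined in SKOV3, a long-established line of human ovarian cancer cells, cultured on a tissue culture plate (TCP) or as tumor spheroids on plates coated with polymer X. Symbols of integrin α subunits, integrin β subunits and laminin chains were taken by name, and 38 of the 19475 gene symbols in the table matched, namely 18 α subunits, 8 β subunits and 12 laminin chains. The match used symbols only and no measured value, though this family was chosen with earlier results of these data known. The series has 4 libraries, 2 of TCP cells labelled day 0 and 2 of polymer X spheroids labelled day 8. According to the methods of the study, fetal bovine serum was used to maintain SKOV3, whereas spheroids were kept in serum replacement and were dissociated at intervals with accutase. The labels instead give a serum replacement protocol for every library. Substrate, day and dissociation changed together between the groups, the medium may have changed with them, and their parts cannot be told apart. The labels describe the libraries as duplicates without saying whether they came from separate cultures, so the p-values measure only the spread between these libraries, which may be technical.

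Integrins are cell surface receptors made of 1 α and 1 β subunit, and the pairing sets the ligand. Some α subunits bind the RGD motif of fibronectin and vitronectin, others bind laminins or collagens, and a further group is typical of leukocytes. Laminins are the trimeric proteins of basement membranes and contain 1 α, 1 β and 1 γ chain, whose numbers name the trimer, so that laminin-511 holds the products of LAMA5, LAMB1 and LAMC1. In epithelia, α6β4 binds laminin-332 at hemidesmosomes, and α3β1 binds laminin-332 and laminin-511. The β1 subunit is shared by 12 of the α subunits, which makes ITGB1 the common partner of the collagen receptors, most laminin receptors and α5β1, the classical fibronectin receptor.

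Expression is given in FPKM, the number of sequenced tags scaled to transcript length and to the size of the library, which allows levels to be compared between genes. The libraries were scaled to between 38405000 and 44913000 tags, as computed from the smallest steps between the deposited values. Replicates correlated at 0.998 on TCP and 0.997 on polymer X across the tested genes, against 0.854 to 0.862 between conditions. The epithelial keratins KRT8 and KRT18 were expressed in all libraries (265 and 122 FPKM on TCP, 144 and 89.5 on polymer X). KRT7 was lower, at 7.95 on TCP and 4.3 on polymer X, and KRT19 was at 0.39 and 0.695. EPCAM was at 0.136 on TCP and 1.36 on polymer X. ERBB2 (202 FPKM on TCP, 887 on polymer X) and PAX8 (49.7 and 105) were expressed in all libraries and were called higher on polymer X. WT1 and MUC16 stayed below 0.5 FPKM in every library. MSLN was at 1.18 on TCP and 2.15 on polymer X. Summed markers of other cell types were low. The 9 leukocyte markers summed to 0.625 to 1.35 FPKM on TCP and 4.56 to 5.34 on polymer X, the 5 endothelial markers to 0.478 to 0.509 and 0.628 to 0.855, the 4 fibroblast markers to 0.351 to 0.373 and 6.51 to 7.67, and the 3 platelet markers to 0.812 to 1.02 and 0.956 to 0.972. Most of the fibroblast sum on polymer X was DCN, which encodes decorin, at 6.73 FPKM. From TCP to polymer X, PDGFRA went from 0.0935 to 0.272, whereas PDGFRB went from 0.0945 to 0.0705 and THY1 from 0.162 to 0.0245. The part of these markers in the results was not tested.

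Among the 38 genes, 26 reached 1 FPKM or more in at least 2 libraries. They were tested with limma on log2(FPKM + 1) in a fit of 11964 genes. A gene was called higher or lower on polymer X at a Benjamini-Hochberg adjusted p under 0.05 over all tested genes and a log2 fold change of at least 1 in either direction. Of the 26, 11 were called higher, which is 42.3% of them, against 10.7% of all tested genes. A further 2 were called lower, which is 7.69% of them, against 9.45% of all tested genes. Their median log2 fold change was 0.92, and that of all tested genes was -0.058. The filter let in 6 of the 26 through the polymer X libraries alone (ITGA2B, ITGA7, ITGAX, ITGB2, ITGB4 and LAMC3), and such genes had to differ. With no filter, 11 of all 38 genes were higher (28.9%, against 7.63% of 16883 genes) and 2 were lower (5.26%, against 6.7%). Among the 20 members with 1 FPKM or more in both TCP libraries, 6 were higher and 2 lower, while 7.68% and 10.2% of the 11040 genes chosen in this way were higher and lower. The groups did not overlap in any of the 26 genes, as was the case for 90.4% of all tested genes. With 2 libraries in each group, the smallest two-sided p that exact permutation allows is 0.333, and the adjusted p-values therefore depend on limma's pooling of the spread over genes. In bulk RNA, a change in the number of cells that express a gene and a change in RNA per cell cannot be told apart.

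**Figure D1:**
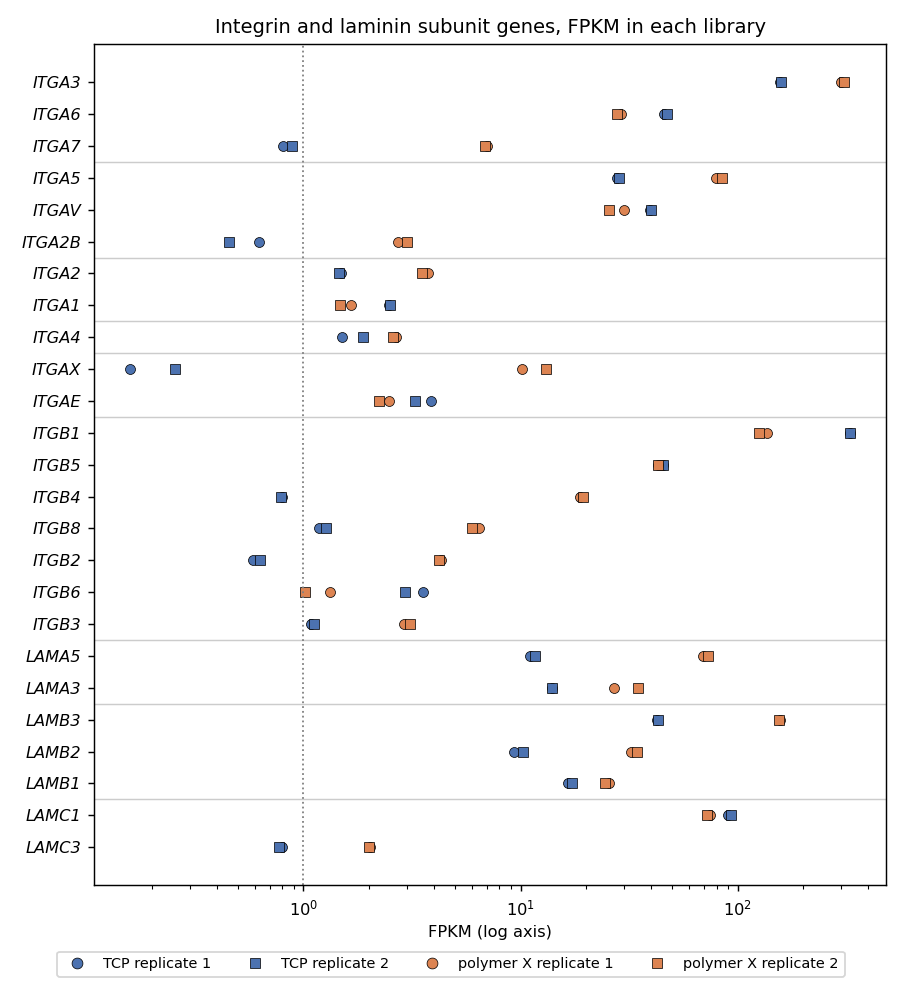
FPKM of 25 of the tested genes in each of the 4 libraries on a log axis, grouped by subunit family and ligand class, with circles and squares for replicates 1 and 2 and a dotted line at 1 FPKM. ITGB1 was the highest member on TCP (331 and 329) and ITGA3 on polymer X (299 and 308), and ITGAX and ITGB4 lay below 1 FPKM on TCP and above 10 FPKM on polymer X.

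Among the laminin-binding α subunits, ITGA3 and ITGA6 had opposite signs and ITGA7 rose. ITGA3, the α subunit of the epithelial laminin receptor α3β1 (chromosome 17, 48133332 to 48167849 on hg19), had an FPKM of 156 and 159 on TCP and 299 and 308 on polymer X. The difference, 0.94 on the log2 scale (standard error 0.06, adjusted p = 4.1e-07), fell short of the fold minimum, so it was not called. ITGA6, which pairs with either β1 or β4 (chromosome 2, 173292283 to 173371183), had 45.6 and 47.1 on TCP and 29 and 27.7 on polymer X. It was not called either (log2 fold change -0.69, standard error 0.06, adjusted p = 2.7e-06). ITGA3 was thus 3.39 ± 0.0285 times (SD, n = 2) as abundant as ITGA6 on TCP and 10.7 ± 0.577 times on polymer X. ITGA7, known as the laminin receptor subunit of muscle (chromosome 12, 56078354 to 56101686), rose from 0.805 and 0.884 to 7.03 and 6.89 (log2 fold change 2.11, standard error 0.07, adjusted p = 1.3e-08). Although ITGA7 had the largest fold change of this class, it remained at 1.47 ± 0.0426% of all α subunit FPKM on polymer X. It passed the filter through the polymer X libraries alone and so had to differ.

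In the RGD-binding class, ITGA5 rose while ITGAV did not. ITGA5 pairs with β1 to form the fibronectin receptor and is the integrin subunit the study followed (NM_002205, chromosome 12, 54789045 to 54813050, minus strand). Its FPKM was 27.8 and 28.5 on TCP and 79.8 and 84.6 on polymer X, 2.92 times higher by the group means, and its log2 difference was 1.51 (standard error 0.06, adjusted p = 1.8e-08). ITGAV, the α subunit of the vitronectin receptors and a partner of 5 β subunits, had 39.3 and 40 on TCP and 30.1 and 25.6 on polymer X, below the fold minimum (log2 fold change -0.50, standard error 0.08, adjusted p = 2.0e-04). ITGAV was the more abundant of the pair in both TCP libraries and ITGA5 in both polymer X libraries, with a ratio of ITGA5 to ITGAV of 0.708 and 0.711 against 2.65 and 3.31. ITGA2B, which encodes αIIb of the platelet fibrinogen receptor, rose from 0.621 and 0.452 to 2.72 and 3 (log2 fold change 1.33, standard error 0.09, adjusted p = 8.3e-07). This gene also passed the filter through the polymer X libraries alone and so had to differ. Of the 3 platelet markers listed, PF4 and GP9 were at 0 in both polymer X libraries, and GP1BA had 0.93 and 0.707 on TCP and 0.972 and 0.956 on polymer X. Their part in the ITGA2B value was not tested. ITGA8 stayed at or below 0.019 FPKM in all libraries.

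The sequences upstream of ITGA5 and of its partner ITGB1 are shown because these genes moved in opposite directions. They are the 250 bases before the transcription start that RefSeq gives on GRCh38.p14, at chr12:54419267-54419516 and chr10:32958231-32958480, both on the minus strand. For each gene, the first start listed was used. The ITGB1 transcript reported here, NM_033668, starts at 33224486 on hg19, whereas NM_002211 starts at 33247293. Which of these starts the ITGB1 window precedes was not tested. Capitals mark matches to the letters GGAATG, the core recognised by TEAD factors, at 82 bases before the start of ITGA5 and 182 before that of ITGB1.
ITGA5: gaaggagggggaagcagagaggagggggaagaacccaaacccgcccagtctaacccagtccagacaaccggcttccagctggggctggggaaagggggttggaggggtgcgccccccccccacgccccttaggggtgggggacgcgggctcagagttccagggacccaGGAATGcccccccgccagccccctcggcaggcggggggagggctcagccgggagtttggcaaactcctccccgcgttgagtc
ITGB1: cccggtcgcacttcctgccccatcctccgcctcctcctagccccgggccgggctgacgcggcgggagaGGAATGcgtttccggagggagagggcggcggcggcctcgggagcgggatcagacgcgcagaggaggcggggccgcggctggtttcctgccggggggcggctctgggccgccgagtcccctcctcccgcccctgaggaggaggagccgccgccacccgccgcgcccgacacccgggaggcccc
This core, searched on both strands, was present in 11.9% of the 27305 promoter windows, so a match is a description and not a site. Both windows were rich in G and C, at 70% for ITGA5 and 78.4% for ITGB1, against a median of 58% over all windows. The study also used siRNAs against ITGA5, though the labels of the 4 libraries name no siRNA treatment. The 19-base sense strand of the first is shown to place its target.
siITGA5 #1: cuccuauaugugaccagag
It matched only transcripts of ITGA5 among the GENCODE v29 transcripts, in coding exon 25 of 30 of ENST00000293379.8 at chr12:54400899-54400917 on GRCh38, minus strand.

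The collagen-binding α subunits were low in both conditions and none was called. ITGA1 had an FPKM of 2.49 and 2.5 on TCP and 1.66 and 1.47 on polymer X (log2 fold change -0.45, adjusted p = 6.2e-04). ITGA2, the α subunit of the collagen receptor α2β1, had 1.49 and 1.46 on TCP and 3.75 and 3.53 on polymer X (log2 fold change 0.91, adjusted p = 3.4e-06). The order of the pair therefore differed, with a ratio of ITGA2 to ITGA1 of 0.6 and 0.585 on TCP and 2.26 and 2.41 on polymer X. However, 475 of the 18566 exonic bases of ITGA1 in GENCODE v29 overlap PELO on the same strand. PELO had 16.2 FPKM on TCP and 12.5 on polymer X. Its part in the ITGA1 value and in this ratio was not tested. On the scale of log2(FPKM + 1), the change of genes near 1 FPKM is understated, and ITGA2 passed the fold minimum with a pseudocount of 0.1 (1.25). ITGA10 was below the filter at 0.476, 0.466, 0.655 and 0.649, and ITGA11 was at or under 3 tags in every library. ITGA4, whose product binds VCAM1 and fibronectin, had 1.51 and 1.88 on TCP and 2.66 and 2.58 on polymer X (log2 fold change 0.43, adjusted p = 1.6e-03). ITGA9, its closest relative, had 0.238 and 0.209 on TCP and 0.076 and 0.131 on polymer X and was not tested.

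Of the 5 α subunits typical of leukocytes, ITGAX rose, and 3 others stayed below 0.2 FPKM. ITGAX encodes αX, or CD11c, a subunit of the complement receptor of myeloid cells (chromosome 16, 31366455 to 31394318). Its FPKM was 0.159 and 0.255 on TCP, which rested on 25 and 47 tags, and 10.2 and 13.1 on polymer X. This was 56.1 times higher by the group means, with a log2 difference of 3.38 (standard error 0.11, adjusted p = 8.9e-09), and ranked 42 among the rises of all 11964 genes. ITGAX passed the filter through the polymer X libraries alone and so had to differ. Its neighbours and paralogs on chromosome 16, ITGAM and ITGAD, reached no more than 0.063 and 0.184 FPKM, although the sources used here do not say how tags matching more than 1 paralog were counted. ITGAL, the lymphocyte subunit, was at or under 3 tags in every library. Among the leukocyte markers, CD3E and MS4A1 were at 0 in all 4 libraries. CD14 was at 0.0535 on TCP and 0.105 on polymer X, whereas PTPRC went from 0.0025 to 0.499. LAPTM5 went from 0.102 to 3.31 and was called higher, but passed the filter through the polymer X libraries alone. The part of the leukocyte markers in the ITGAX and ITGB2 values was not tested. ITGAE, whose product binds E-cadherin as αEβ7, had 3.88 and 3.25 on TCP and 2.47 and 2.24 on polymer X (log2 fold change -0.44, adjusted p = 1.4e-03). Its exons overlap 427 bases of HASPIN on the other strand in GENCODE v29, and HASPIN went from 5.89 to 1.42 FPKM, a change whose part in the ITGAE value was not tested since tags were counted without regard to strand.

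By ligand class, the laminin-binding and RGD-binding subunits held nearly the same shares of α subunit mRNA in both conditions in the main processing, while the shares of single genes within these classes changed. Laminin-binding subunits held 72.2 ± 0.175% of the summed α subunit FPKM on TCP and 71.4 ± 0.0181% on polymer X (SD, n = 2), and RGD-binding subunits held 24.2 ± 0.054% and 23.8 ± 0.29%. Collagen-binding subunits held 1.57 ± 0.0334% and 1.24 ± 0.0807%, and leukocyte subunits 1.35 ± 0.164% and 2.99 ± 0.365%. These are descriptions without a test. The small differences of the laminin-binding and RGD-binding classes depended on the processing. That of the laminin-binding class changed sign with quantile normalization or with transcripts summed, and that of the RGD-binding class went from -0.365 to -4.72 percentage points with transcripts summed. Within the classes, the share of ITGA3 went from 55.6% to 64% and that of ITGA6 from 16.4% to 5.98%. The share of ITGA5 went from 9.95% to 17.3% and that of ITGAV from 14% to 5.87%. The summed FPKM of all α subunits was 280 and 286 on TCP and 469 and 480 on polymer X.

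**Figure D2:**
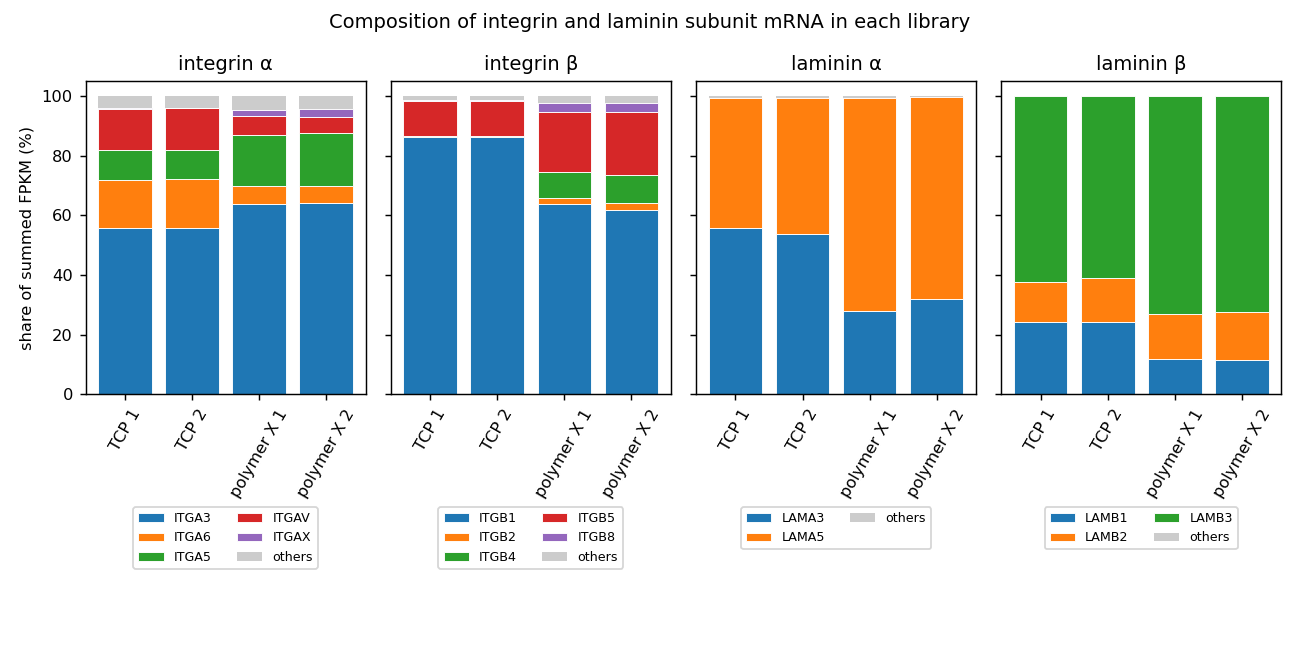
Stacked bars of the share (%) of each gene in the summed FPKM of its family (integrin α and β, laminin α and β) in each of the 4 libraries, with genes below 2% in both conditions pooled as others. The ITGB1 share was 86.2% in both TCP libraries and 63.8% and 61.9% on polymer X, and the LAMA5 share was 43.7% and 45.3% against 71.7% and 67.6%.

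Among the β subunits, ITGB1 fell and ITGB4, ITGB8 and ITGB2 rose. ITGB1 (NM_033668, chromosome 10, 33189246 to 33224486, minus strand) had an FPKM of 331 and 329 on TCP and 136 and 125 on polymer X, 2.53 times lower by the group means. The log2 fold change was -1.33 (standard error 0.06, adjusted p = 7.7e-08). With quantile normalization the change was -0.97, which was short of the fold minimum. The 3 ITGB1 transcripts listed had log2 differences between -1.35 and -1.33. The summed FPKM of the 8 β subunits was 384 and 381 on TCP and 213 and 202 on polymer X.

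On the log2(FPKM + 1) scale, ITGB4 had the largest rise of the tested members and ranked 35 among the rises of the 11964 tested genes, whereas ITGAX rose more by the ratio of group means and with a pseudocount of 0.1 (5.26 against 4.43). Its product, β4, pairs only with α6 and links laminin to intermediate filaments in hemidesmosomes (chromosome 17, 73717408 to 73753899). The FPKM was 0.796 and 0.785 on TCP and 18.8 and 19.4 on polymer X, 24.1 times higher by the group means, and the log2 fold change was 3.49 (standard error 0.07, adjusted p = 8.0e-10). The 4 ITGB4 transcripts ranged from 3.45 to 3.49. ITGB8, a partner of αV that activates latent TGF-β, rose from 1.18 and 1.27 to 6.46 and 5.97 (log2 fold change 1.70, standard error 0.08, adjusted p = 6.1e-08). ITGB2, the shared β subunit of the leukocyte integrins (chromosome 21, 46305869 to 46348788), rose from 0.587 and 0.631 to 4.28 and 4.2 (log2 fold change 1.70, standard error 0.08, adjusted p = 6.0e-08). Its exons overlap 303 bases of the antisense gene ITGB2-AS1, from which tags cannot be told apart here. ITGB4 and ITGB2 passed the filter through the polymer X libraries alone and so had to differ.

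The remaining β subunits were not called. ITGB5, a partner of αV for vitronectin, was the closest to no difference, with 45.4 in both TCP libraries and 42.8 and 42.9 on polymer X (log2 fold change -0.08, standard error 0.05, adjusted p = 0.18), and its sign depended on the scaling, being 0.22 with quantile normalization. ITGB3 had 1.08 and 1.12 on TCP and 2.91 and 3.08 on polymer X (log2 fold change 0.93, adjusted p = 3.3e-06, and 1.37 and called with a pseudocount of 0.1), and shares 2266 exonic bases with the overlapping gene model AC068234.1 on the same strand. ITGB6, the epithelial partner of αV, had 3.56 and 2.95 on TCP and 1.33 and 1.02 on polymer X, 2.76 times lower by the group means. Its difference of -0.97 on the log2 scale (standard error 0.10, adjusted p = 1.7e-05) lay at the fold minimum and passed it without TCP replicate 2 or without polymer X replicate 1 (-1.07 in both), and with a pseudocount of 0.1 (-1.40). ITGB7 was below the filter at 0.36 to 0.5 FPKM, and 1886 of its 4481 exonic bases overlap ZNF740 on the other strand. As a share of β subunit FPKM, ITGB1 went from 86.2 ± 0.00546% to 62.9 ± 1.35% (SD, n = 2), ITGB5 from 11.9 ± 0.0658% to 20.7 ± 0.768%, ITGB4 from 0.207 ± 0.00109% to 9.21 ± 0.521% and ITGB8 from 0.32 ± 0.0174% to 2.99 ± 0.0589%.

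The balance of α and β mRNA differed between the conditions. The ratio of summed α to summed β FPKM was 0.73 and 0.75 on TCP and 2.21 and 2.37 on polymer X. ITGB1 alone stood at 1.2 and 1.17 times the summed FPKM of its 12 α partners on TCP and at 0.299 and 0.271 times on polymer X. On TCP, ITGB1 was thus more abundant than all its α partners together, and on polymer X it was less abundant than ITGA3 by itself. These ratios concern mRNA, and no protein was measured in these libraries.

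**Figure D3:**
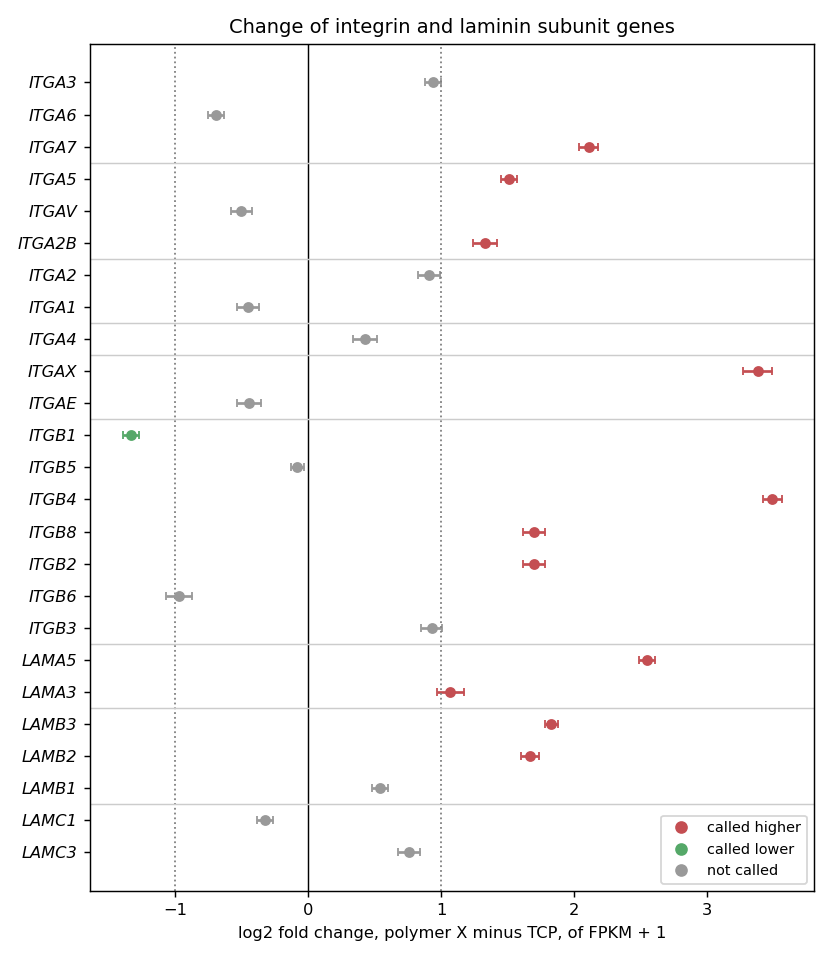
Log2 fold change of FPKM + 1, polymer X minus TCP, of 25 of the tested genes, with bars for the standard error from limma and dotted lines at the fold minimum of 1 in each direction. ITGB4 (3.49) and ITGAX (3.38) lay farthest to the right, ITGB1 (-1.33) lay past the minimum on the left, and ITGA3 (0.94), ITGB3 (0.93), ITGA2 (0.91) and ITGB6 (-0.97) lay close to the fold minimum.

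To compare heterodimers, the FPKM of the lower subunit was taken for each of 24 known integrin dimers as a description of which mRNA was scarcer. Both subunits reached 1 FPKM in 11 dimers on TCP and in 15 on polymer X, and the 11 were among the 15. The 4 dimers gained were α6β4, α7β1, αIIbβ3 and αXβ2. Each was gained through ITGB4, ITGA7, ITGA2B, ITGAX or ITGB2, which passed the same cut of 1 FPKM through the polymer X libraries alone. The gain thus restates how these genes entered the test. For α6β4, the scarcer subunit was ITGB4 in all libraries, and the ratio of ITGA6 to ITGB4 was 57.2 and 60 on TCP and 1.54 and 1.43 on polymer X. In α3β1 the scarcer subunit changed from ITGA3 (156 and 159) on TCP to ITGB1 (136 and 125) on polymer X. For α5β1, ITGA5 was the scarcer subunit in every library, although its 2 subunits were called in opposite directions. The same opposite calls held for α7β1. The dimer αXβ2 was the only one of the 24 with both subunits called higher. Both had passed the filter through the polymer X libraries alone and so had to differ. The ratio of ITGAX to ITGB2 was 0.271 and 0.404 on TCP and 2.37 and 3.12 on polymer X. Among the dimers of αV, the lowest subunit FPKM of αVβ8 was 1.18 and 1.27 on TCP and 6.46 and 5.97 on polymer X, that of αVβ6 was 3.56 and 2.95 against 1.33 and 1.02, and that of αVβ5 was 39.3 and 40 against 30.1 and 25.6.

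**Figure D4:**
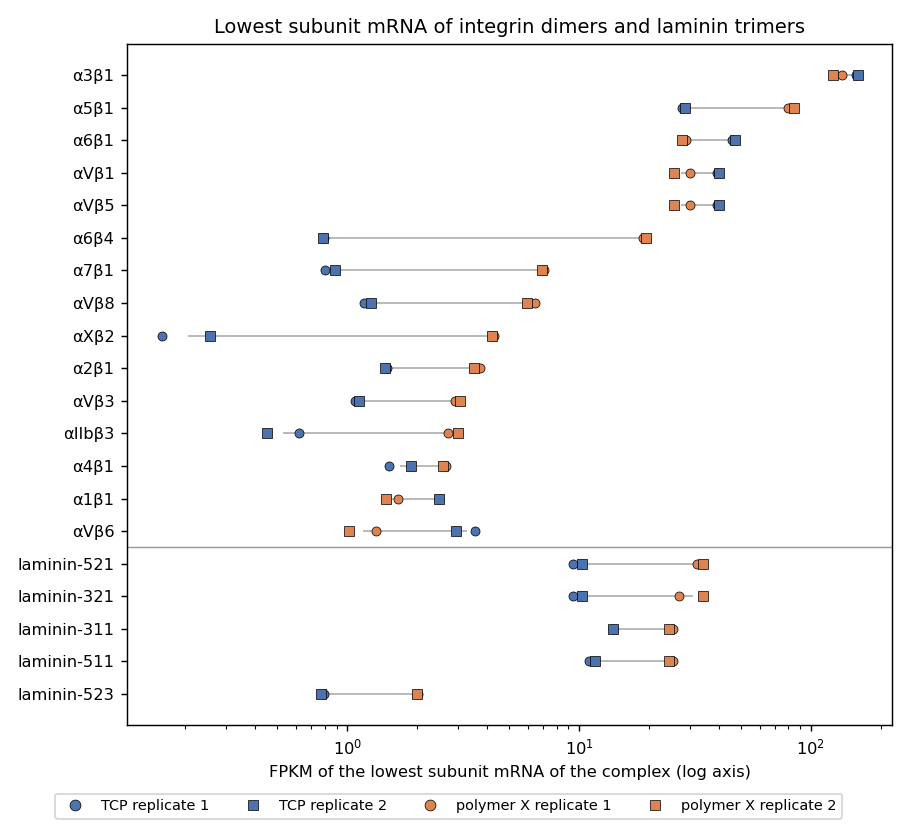
FPKM of the lowest subunit mRNA, on a log axis, of the 15 integrin dimers and 5 laminin trimers whose subunits all reached 1 FPKM in at least 1 condition, with circles and squares for replicates 1 and 2 and a line between the group means. The dimer α6β4 moved from 0.796 and 0.785 on TCP to 18.8 and 19.4 on polymer X, whereas α3β1 stayed above 100 FPKM in all libraries.

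Of the 12 laminin chain genes, 8 were tested, and LAMA3, LAMA5, LAMB2 and LAMB3 were called higher. All 4 had at least 1 FPKM in both TCP libraries. Among the α chains, LAMA5, the α chain of laminin-511 and laminin-521 (chromosome 20, 60884116 to 60942368, minus strand), rose from 11 and 11.7 to 69.3 and 73.4, 6.28 times higher by the group means. This difference, 2.55 on the log2 scale (standard error 0.06, adjusted p = 1.9e-09), ranked 136 among the rises of all tested genes. Its exons overlap 244 bases of ADRM1 on the other strand, and ADRM1 itself went from 121 to 59 FPKM. LAMA3, the α chain of laminin-332 (chromosome 18, 21452984 to 21535029), rose from 14 in both TCP libraries to 26.9 and 34.7 (log2 fold change 1.07, standard error 0.10, adjusted p = 7.1e-06). This call rested on polymer X replicate 2, without which the log2 fold change was 0.90. LAMA1, LAMA2 and LAMA4 stayed at or below 0.258 FPKM in every library. LAMA3 was the more abundant α chain on TCP and LAMA5 on polymer X, with a ratio of LAMA5 to LAMA3 of 0.783 and 0.84 against 2.58 and 2.12.

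The upstream windows of these α chains are shown side by side because both genes rose and their sequences differ in composition. They lie at chr18:23872770-23873019 on the plus strand for LAMA3 and chr20:62367313-62367562 on the minus strand for LAMA5, again the 250 bases before the start that RefSeq gives on GRCh38.p14. Capitals mark matches to the AP-1 letters TGANTCA, at 125 and 69 bases before the start of LAMA3. The LAMA5 window held none of the letters searched.
LAMA3: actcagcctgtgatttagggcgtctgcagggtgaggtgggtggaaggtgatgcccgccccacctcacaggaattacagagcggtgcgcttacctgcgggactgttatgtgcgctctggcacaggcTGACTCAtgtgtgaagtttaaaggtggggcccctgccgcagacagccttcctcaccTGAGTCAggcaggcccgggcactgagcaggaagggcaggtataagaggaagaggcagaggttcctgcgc
LAMA5: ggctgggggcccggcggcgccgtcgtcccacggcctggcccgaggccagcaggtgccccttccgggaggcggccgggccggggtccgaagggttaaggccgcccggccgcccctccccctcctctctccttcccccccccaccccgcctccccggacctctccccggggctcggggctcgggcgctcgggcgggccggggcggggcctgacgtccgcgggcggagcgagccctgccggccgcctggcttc
G and C made up 60.4% of the LAMA3 window and 82.8% of the LAMA5 window, the latter above 98.8% of all windows. The AP-1 letters were found in 6.6% of all windows. Windows were at hand for 26 of the 38 genes and not used here for the rest, among them ITGA3, ITGA7, ITGAX, ITGB2, ITGB3, ITGB4 and LAMC3. Over these 26, both strands searched, the AP-1 letters were found in 1 (LAMA3) and the TEAD core in 4 (ITGA5, ITGB1, ITGA10 and LAMA2). The hypoxia response core ACGTG was found in 2 (ITGA6 and ITGA11), against 18.7% of all windows, and the STAT letters TTCNNNGAA in 2 (LAMB2 and ITGAE), against 6.78%. In the printed windows, no base was shared by matches to different motifs.

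Of the laminin β chains, LAMB3 and LAMB2 rose. LAMB3, which occurs in laminin-332 (chromosome 1, 209788218 to 209825820, minus strand), had an FPKM of 42.6 and 43.2 on TCP and 156 and 155 on polymer X (log2 fold change 1.83, standard error 0.05, adjusted p = 4.8e-09). LAMB2, the β chain of laminin-521 (chromosome 3, 49158547 to 49170599), rose from 9.37 and 10.3 to 32.4 and 34.4 (log2 fold change 1.67, standard error 0.07, adjusted p = 2.6e-08). LAMB1, the β chain of laminin-511, had 16.6 and 17.2 on TCP and 25.5 and 24.5 on polymer X and was not called (log2 fold change 0.54, adjusted p = 1.7e-05). LAMB1 was higher than LAMB2 in both TCP libraries and lower in both polymer X libraries, with a ratio of LAMB2 to LAMB1 of 0.564 and 0.599 against 1.27 and 1.4. LAMB4 was not tested and stayed at or below 0.116 FPKM.

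LAMC1, the γ chain of most laminins (chromosome 1, 182992595 to 183114727), had an FPKM of 90.7 and 93.7 on TCP and 74.8 and 72.2 on polymer X and was not called (log2 fold change -0.32, adjusted p = 4.3e-04). LAMC3, a γ chain of laminin-523, had 0.794 and 0.774 on TCP and 2.03 and 2 on polymer X (log2 fold change 0.76, adjusted p = 1.6e-05). It was not called, but passed the fold minimum with a pseudocount of 0.1 (1.26). The summed FPKM of the α chains was 25.1 and 25.9 on TCP and 96.6 and 108 on polymer X, and that of the β chains 68.7 and 70.7 against 214 in both. On TCP, LAMC1 alone was therefore above the sum of either kind of chain, and on polymer X it was below both sums.

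Laminin trimers were described by their scarcest chain. For laminin-511, the scarcest chain was LAMA5 (11 and 11.7) on TCP and LAMB1 (25.5 and 24.5) on polymer X. For laminin-521 it was LAMB2 in both, at 9.37 and 10.3 against 32.4 and 34.4. All chains reached 1 FPKM for 4 of 13 listed trimers on TCP and for 5 on polymer X, and the trimer gained was laminin-523 through LAMC3. LAMC3 passed the same cut through the polymer X libraries alone. As a share of its family, LAMA5 went from 44.5 ± 1.12% to 69.7 ± 2.9% of α chain FPKM (SD, n = 2), and LAMB3 from 61.6 ± 0.694% to 72.7 ± 0.326% of β chain FPKM.

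Several transcripts were listed for 21 of the 38 genes, 83 transcripts in all, and these share tags. The sign of the difference was the same for all transcripts of a gene except ITGA4, whose short form NM_001316312 had a log2 difference of -0.15 against 0.43 for the full-length form. LAMA3 has a short form, LAMA3A, and a long form with additional 5′ exons. The 5006 exonic bases that the long form NM_198129 has beyond the short form NM_000227 had an FPKM of 1.75 and 1.9 on TCP and 3.35 and 4.02 on polymer X, against 14 and 14 and 26.8 and 34.3 for the short form itself. The short form was therefore the main source of LAMA3 tags in every library.

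Other genes of the adhesion pathway were read from the same fit. The list of integrin ligands other than laminins had 48 genes, of which 31 were tested, 14 were higher and 6 lower, with a median log2 fold change of 0.94. Of the tested ligand genes, COL3A1, COL6A3, IBSP, ICAM1, ICAM5 and JAM2 passed the filter through the polymer X libraries alone. THBS1 and CTGF passed it through the TCP libraries alone. Such genes had to differ, and all of them but IBSP are among the called genes. Of all tested genes, 10.7% were higher and 9.45% lower, and the same shares apply to the next lists. On the log2(FPKM + 1) scale, the largest rises were those of the collagen VI chains COL6A1 (5.43 to 137 FPKM, log2 fold change 4.42) and COL6A2 (36.8 to 419, 3.48) and of NPNT, which encodes nephronectin (1.58 to 21.7, 3.14). By the ratio of group means the order differed, and COL3A1 (0.0205 to 4.91 FPKM) and ICAM1 (0.402 to 6.25) rose more than COL6A2 and NPNT. On the log2(FPKM + 1) scale, the largest falls were those of THBS1, CTGF and CYR61, which encode matricellular proteins, with log2 fold changes of -6.16, -4.86 and -4.78. FN1, the ligand of α5β1, rose from 258 to 1168 FPKM on average (2.17). Ligand genes thus moved in both directions, and nephronectin, a ligand of α8β1, rose while ITGA8 stayed near 0.

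Of the 42 integrin adaptors and lateral partners listed, 41 were found (TENC1 was not matched by symbol). Of these, 37 were tested, with 3 higher, 6 lower and a median log2 fold change of -0.35. TLN2, called lower, and FERMT1, not called, passed the filter through the TCP libraries alone. TNS1, PLAUR and CD82 rose (1.42, 1.06 and 1.03), while the caveolar protein gene CAV1 (-1.93), the α-actinin gene ACTN4 (-1.58) and the filamin gene FLNA (-1.27) had the largest falls. Of the 31 basement membrane and hemidesmosome genes, 24 were tested, with 5 higher, 2 lower and a median of 0.15. SPARC (1.93), COL4A5 (1.64) and the laminin α5 receptor gene BCAM (1.17) had the largest rises, and COL4A1 (-1.71) and NTN4 (-1.21) were the 2 that fell. The hemidesmosome genes COL17A1, PLEC and DST and the tetraspanin gene CD151 were not called, with log2 fold changes of -0.84, -0.19, -0.11 and 0.14.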

How the data were processed

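RNA-seq values came from 2 TCP and 2 polymer X libraries of SKOV3, grouped by their titles. The authors deposited FPKM values for 50078 RefSeq transcripts of hg19, made with HOMER from tags on exons of both strands and rounded to 3 decimals. The submitters' processing notes also name STAR 2.4.0 and DESeq. The library kit was directional, but the counting ignored strand, so overlapping genes share tags. No counts were used, and no count test was run.

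Each symbol was represented by its transcript of highest mean FPKM. Values multiplied by transcript length fell on whole numbers of tags (all low values used were within 0.1), which gave the library sizes. A group with 3 tags or fewer in each library was treated as at the floor. These limits cover counting error only. Genes that reached 1 FPKM in 2 or more libraries were compared on log2(FPKM + 1) in limma 3.58.1 (R 4.3.3), with a mean-variance trend, all 4 libraries and no block, and p-values were adjusted by the Benjamini-Hochberg method over all tested genes. The procedure was tested on simulated data. Fold changes on this scale understate those of low genes, so ratios of group means are given where named. Shares, ratios and lowest subunits are descriptions without a test.

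Tested members are given with their FPKM in each library, except for 1 that is counted in the totals but not reported here, and for each of the 3 lists of other genes the 3 called genes that changed most in each direction are named. Genes beyond this were chosen after their values were seen. The members and lists were chosen with earlier results of these data known. Alternatives were a pseudocount of 0.1, no filter or a minimum mean of 5 FPKM, quantile and median scaling, a replicate block, the longest or summed transcripts, other fold minimums, no trend, and each library left out. Exon overlaps and the siRNA position came from GENCODE v29 on GRCh38, and promoter windows from RefSeq on GRCh38.p14, using the first start listed for a gene. Plots were drawn with matplotlib 3.10.9.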

Additional observations from a re-analysis of the deposited data

How the results depend on the processing

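Counts depended mainly on the fold minimum and the filter. With no fold minimum, 17 members were higher and 8 lower, and 4477 and 5212 of all tested genes. With a minimum of 2, 4 members were higher and 0 lower in limma (against the 8 lower at an adjusted p under 0.05 alone), and 281 and 150 of all genes. With a minimum mean of 5 FPKM, which left 15 members and 8166 genes tested, 7 members and 702 genes were higher. With a pseudocount of 0.1, 14 members were higher and 3 lower, and 1837 and 1413 of all genes. Leaving out each library gave 10 to 11 members higher and 2 to 3 lower, and 1289 to 1325 and 1053 to 1234 of all genes. The lone library of a group was then assumed to vary like the other group, and the genes tested were kept. In these fits, 24 of 26 members kept their call, the exceptions being LAMA3 (0.90 without polymer X replicate 2) and ITGB6 (-1.07 without TCP replicate 2 or polymer X replicate 1).

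Quantile normalization gave ITGB5 the opposite sign (0.22), took ITGB1 below the fold minimum (-0.97) and took ITGA3 (1.24) and ITGB6 (-1.24) past it; the cause was not tested. The difference in the laminin-binding share was -0.835 percentage points, -0.96 to -0.71 without 1 library, and turned to 1.5 with summed transcripts and 0.44 with quantile normalization. That of the RGD-binding share was -0.365 (-0.57 to -0.16 without 1 library), -4.72 with summed transcripts and -0.08 with quantile normalization. Summing counts a shared tag once for each transcript by construction. The ITGB1 share differed by -23.3 points (-24.3 to -22.4 without 1 library) and by -21.1 with quantile normalization. The LAMA5 share differed by 25.2 (23.1 to 27.2 without 1 library), by 22.3 with the longest transcript and by 22.0 with summed transcripts.

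With the replicate number as a block, 11 members were higher and 2 lower, and 1285 and 1131 of all genes, so the block changed no count. Deviations of same-numbered libraries correlated at 0.093, and nothing in the labels pairs them.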

Other observations

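Among the cell surface ligands of the β2 and α4 integrins, ICAM1, ICAM5, JAM2 and F11R were called higher on polymer X and others were not. ICAM1, the counter-receptor of β2 integrins, rose from 0.402 ± 0.103 to 6.25 ± 0.0424 FPKM (SD, n = 2), a log2 fold change of 2.37. ICAM5 rose from 0.391 to 4.4, JAM2 from 0.272 to 2.42, and F11R, which encodes the junctional adhesion molecule that binds αLβ2, from 8.39 to 52.8. Of these, ICAM1, ICAM5 and JAM2 passed the filter through the polymer X libraries alone and so had to differ. ICAM3 had 4.52 on TCP and 2.98 on polymer X and was not called. ICAM2, ICAM4 and MADCAM1 stayed below 1 FPKM in every library and were not tested. VCAM1, the main cell surface ligand of α4β1, stayed at or below 0.25 FPKM, and CDH1, which encodes the E-cadherin bound by αEβ7, at or below 0.373. These genes were chosen after their values were seen.

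Among ligands of αV integrins, MFGE8 rose from 20.9 to 76.7 FPKM (log2 fold change 1.83). TGFB1, whose latent form is bound by αVβ6 and αVβ8, rose from 19.3 to 41.1 (1.05), while FBN1 fell from 14.8 to 6.83 (-1.02). Tenascin C, encoded by TNC, had 8.86 on TCP and 9.3 on polymer X. VTN, which encodes vitronectin, had 0.0375 and 0.0745 and was not tested. These ligands were chosen after their values were seen and are not all those of αV. Of the fibrillar collagen chains, COL1A2 rose from 8.58 to 44 FPKM. COL3A1 rose from 0.0205 to 4.91, but passed the filter through the polymer X libraries alone and so had to differ. COL1A1, whose product joins that of COL1A2 in collagen I, had 8.34 on TCP and 3.79 on polymer X. It was not called (log2 fold change -0.96, adjusted p = 9.3e-07). COL5A1 had 71.8 on TCP and 138 on polymer X, and COL5A2 had 5.58 and 10.5. Neither was called (log2 fold changes 0.94 and 0.81), and COL2A1 was below the filter.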
